A study of Marchantia polymorpha with 9 samples.

Results

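The 80 genes described here had more transcript counts in thalli of the liverwort Marchantia polymorpha labelled OX than in wild type, while thalli labelled KO stayed near wild type. They were picked from the 19287 gene IDs of the deposited count table by their levels in all 3 genotypes. A member had an OX mean of at least 1 CPM (counts scaled to a common library total) and a log2 ratio of OX to WT of at least 1. Its log2 ratio of KO to WT lay strictly between -0.585 and 0.585, and all of its OX libraries were above all of its WT libraries. Ratios were taken between group means after adding 0.1 CPM. IDs of the Y chromosome and of scaffolds with fewer than 3 gene IDs were left out, which left 18596 IDs. In total 169 genes met every condition on OX, and they divided into these 80, 39 with KO also higher and 50 with KO lower.

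The samples were 9 RNA-seq libraries from whole thalli, the flat green body of the plant, harvested at 10 days from male plants of the Cambridge strain grown from gemmae. There were 3 libraries each of WT, OX and KO, which the labels do not spell out and which are taken as wild type, an overexpression line and a knockout line. The series concerns a MYB transcription factor lineage related to MIXTA, but the labels tie no gene ID to it, so the altered gene was not checked and may or may not be a member. The series design gives 3 biological replicates for each line, so that each genotype is 1 line here, and a difference between genotypes cannot be told apart from a difference between lines. The labels name neither the promoter that drives the OX line nor the lesion of the KO line.

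MYB proteins are transcription factors that bind DNA through repeats of the MYB domain. MIXTA and its relatives are known in flowering plants for shaping epidermal cells and for switching on genes of the cuticle, the layer of cutin and waxes that covers the aerial surface and limits water loss. Raising and removing such a factor are the usual ways to look for the genes that respond to it. The file does not pair its IDs with gene names or products, and 0 of them matched the table of assembly MpTak2_v7.1, which has 18391 rows. The 80 genes are therefore given by ID, without functions or sequences, and lists of cuticle, phenylpropanoid or cell wall genes could not be counted among them. CPM is not divided by transcript length here, so levels are compared between libraries and not between genes.

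Library totals lay between 44802998 and 57696744 counts. All 173583 values were even (0 odd values), so 1 read pair appears to count as 2. A count of 0 in a library allows a level of up to 3 pairs, or 0.104 to 0.134 CPM here, for counting error only. Of 113 Y-chromosome IDs, used to check the male label, 60 had counts in WT, 58 in OX and 51 in KO. In bulk tissue, fewer cells that express a gene and less RNA per cell cannot be told apart.

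The largest ratio was that of Mapoly0023s0165. Its WT libraries had 11.4, 10.8 and 9.17 CPM, its OX libraries 1019, 941 and 957 CPM, and its KO libraries 8.96, 8.25 and 6.89 CPM. The OX libraries were far above all others, and every KO library was below every WT library. The fitted log2 fold change from WT to OX was 6.49 ± 0.12 (SE, n = 3 libraries each). The mean levels were 10.5 ± 1.16 CPM in WT and 972 ± 41.5 CPM in OX (SD). Their ratio was 92.9, which is taken from CPM and not from the fit.

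Mapoly0096s0058 also had a large ratio, with many counts in OX. It had 57.2, 63.4 and 82.5 CPM in WT, 724, 674 and 746 CPM in OX, and 44.93, 45.04 and 62.32 CPM in KO. Its OX libraries did not overlap with either of the other genotypes, while WT and KO overlapped. The fitted log2 fold change was 3.35 ± 0.15 (SE).

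Mapoly0037s0085 was near the limit of detection outside OX. It had 0, 0.0893 and 0.0349 CPM in WT, 0.0697, 0 and 0 CPM in KO, and 5.22, 3.67 and 3.29 CPM in OX. All 6 libraries of WT and KO were below the limit that a count of 0 allows, and all 3 OX libraries were well above it. The OX libraries held 339 read pairs and the WT libraries 3, a ratio of 107 after scaling to library totals with a 95% exact counting interval of 36.4 to 522. This interval does not cover the spread between libraries.

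The next members by ratio had few counts in every genotype. Mapoly0196s0008 had 0.314, 0.0893 and 0.209 CPM in WT, 2.33, 1.87 and 2.13 CPM in OX, and 0.488, 0.277 and 0.139 CPM in KO. Mapoly0112s0023 had 1.05, 0.67 and 1.01 CPM in WT, 4.62, 5.41 and 5.18 CPM in OX, and 0.872, 1.66 and 1.08 CPM in KO. In both genes the OX libraries formed a group of their own and the KO libraries overlapped with WT. The fitted log2 fold changes were 3.26 ± 0.42 and 2.41 ± 0.25 (SE).

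Mapoly0027s0052 had 0.209, 0.0446 and 0.418 CPM in WT, 1.43, 1.32 and 1.44 CPM in OX, and 0.139, 0.208 and 0.104 CPM in KO. Mapoly0141s0016 had 0.314, 0.357 and 0.593 CPM in WT, 1.92, 2.29 and 2.17 CPM in OX, and 0.384, 0.589 and 0.417 CPM in KO. Again OX stood apart, which the rule requires against WT, and KO overlapped with WT. Together with Mapoly0006s0059, which is described with the spread over the OX libraries, these were the 8 members with a log2 ratio of at least 2.

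**Figure D1:**
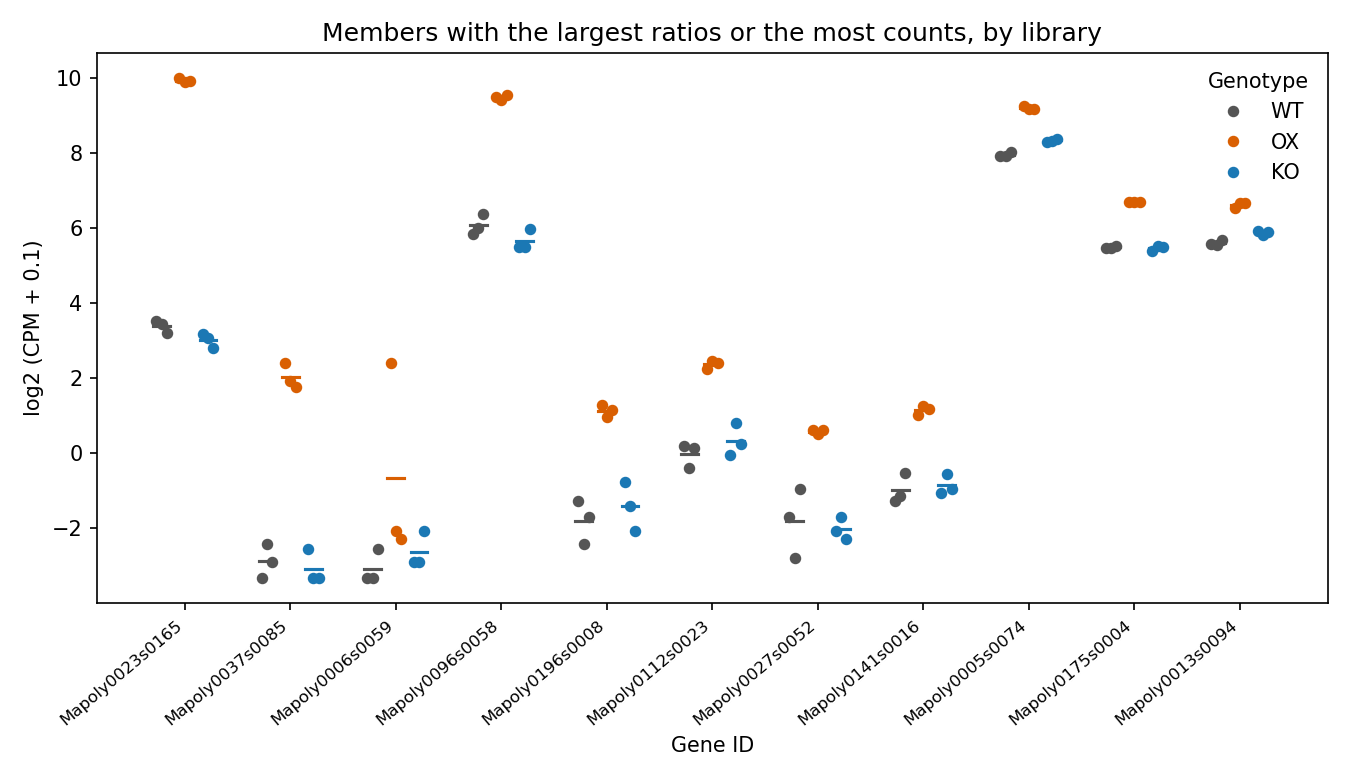
Levels of the 8 members with the largest ratios and of the 3 further members among the 5 with the most counts in OX, as log2 (CPM + 0.1); each point is a library, grey for WT, orange for OX and blue for KO, and bars are means on this scale. By the rule, the OX points lie above the WT points for each of the 11 genes, but for Mapoly0006s0059 only OX replicate 1 is far above them.

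Most of the 80 ratios were much smaller. The median log2 ratio of OX to WT was 1.22, with 58 members between 1 and 1.5, 14 between 1.5 and 2, and 8 at 2 or more. Over all 14813 genes that passed the low-count filter the median was 0.06. These ratios follow from the choice of the genes and are a description of it.

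The 3 further genes with many counts in OX had much smaller ratios. Mapoly0005s0074 and Mapoly0175s0004 were near the median of the members, at log2 ratios of OX to WT of 1.24 and 1.21. Mapoly0013s0094, at 1.015, was close to the minimum. Mapoly0005s0074 had 242, 244 and 259 CPM in WT, 606, 578 and 579 CPM in OX, and 316, 318 and 334 CPM in KO. Its 3 genotypes did not overlap, with KO between WT and OX. Mapoly0175s0004 had 44.1, 44.1 and 45.6 CPM in WT, 104, 103 and 104 CPM in OX, and 42.0, 45.9 and 44.6 CPM in KO. Here the OX libraries were at a common higher level and the KO libraries spanned those of WT. Mapoly0013s0094 had 47.5, 46.9 and 50.8 CPM in WT, 91.9, 101 and 101 CPM in OX, and 60.8, 56.5 and 59.3 CPM in KO, so that KO again lay between the other genotypes.

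As a share of all counts the 80 genes were small in WT and KO and larger in OX. They took 0.0624% to 0.0677% of the counts of a WT library, 0.0684% to 0.0715% of a KO library and 0.296% to 0.310% of an OX library. Summed over members, the mean level was 646 CPM in WT, 697 CPM in KO and 3041 CPM in OX. Of the difference of 2395 CPM between OX and WT, Mapoly0023s0165 made up 40.2%, Mapoly0096s0058 27.0% and Mapoly0005s0074 14.2%. The other 77 members added 446 CPM in all.

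Most members had few counts. Their OX means were under 2 CPM in 23 genes, from 2 to under 10 CPM in 32, from 10 to under 100 CPM in 21 and at least 100 CPM in 4. The median WT mean was 1.44 CPM, against 19.4 CPM over all genes tested. The minimum of 1 CPM in the rule applied to OX alone.

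In edgeR's quasi-likelihood test with Benjamini-Hochberg adjustment over all genes tested, 10.5% of genes were called higher in OX than in WT. Of the 80 members 79 passed the low-count filter, and 77 were called higher. The members not called were Mapoly0055s0008 and Mapoly0086s0080, and Mapoly0006s0059 was not tested. OX libraries were above all WT libraries in 27.5% of genes tested and, by the rule, in all 80 members. Since the rule used this contrast, neither count adds to it. Higher genes made up 42.4% of all calls between OX and WT. They made up 57.2% when libraries were scaled by their size alone in place of TMM factors, which are set by the bulk of the genes. With that scaling 78 of the members were called higher.

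The WT libraries of Mapoly0086s0080 had 0.209, 0.268 and 0.976 CPM. Its OX libraries had 1.28, 1.18 and 1.23 CPM, so that WT replicate 3 came close to OX while the other WT libraries did not. Its KO libraries had 0.488, 0.381 and 0.522 CPM. The fitted log2 fold change from WT to OX was 1.27 ± 0.45 (SE).

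**Figure D2:**
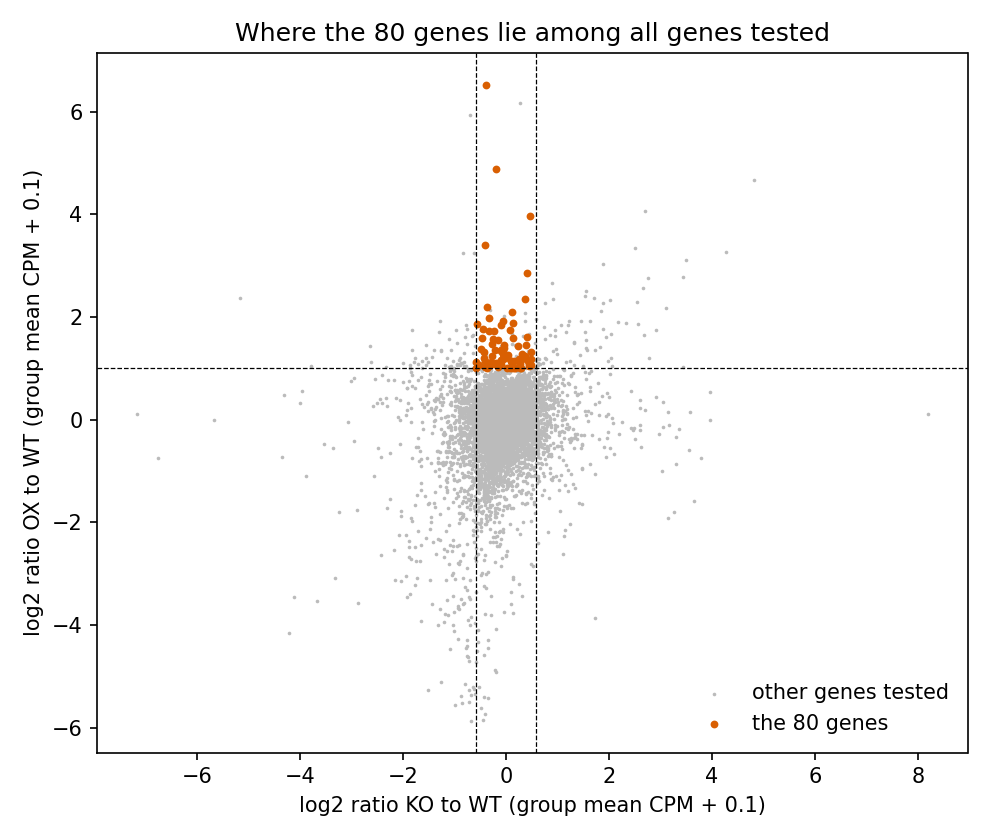
Log2 ratio of OX to WT (vertical) against log2 ratio of KO to WT (horizontal) of group mean CPM with 0.1 added, for the 80 genes (orange) and the other genes tested (grey); dashed lines mark the bounds of the rule at 1, -0.585 and 0.585. The 80 genes lie above the horizontal line and between the vertical lines, most of them close to the horizontal line. Grey points in the same space are genes that failed another condition of the rule. Both axes share the WT libraries.

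Within the allowed range, KO was below WT in 47 members and above it in 33, with a median log2 ratio of KO to WT of -0.06, against -0.02 over all genes tested. In 35 members the ratio was within 0.2 of 0. In edgeR's test 6.51% of all genes tested were called higher and 7.64% lower in KO than in WT. Of the members 2 were called higher, Mapoly0005s0074 and Mapoly0013s0094, and 2 lower, Mapoly0063s0049 and Mapoly0142s0035. DESeq2 called 1109 of the 14813 genes tested higher and 1419 lower, and 9 of the members in either direction, in place of 4. With a replicate block 1735 genes were called higher and 1781 lower, and more of the members, as given in the last section. The rule bounded this ratio, so the low counts are part of the choice.

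The lower genes stayed within the bound of the rule. Mapoly0063s0049 had 11.5, 10.8 and 10.5 CPM in WT, 22.8, 22.3 and 21.4 CPM in OX, and 7.32, 6.59 and 7.83 CPM in KO. Its 3 genotypes did not overlap, with KO lowest. Mapoly0142s0035 had 6.39, 5.67 and 5.75 CPM in WT, 12.1, 12.1 and 12.4 CPM in OX, and 4.53, 4.79 and 4.07 CPM in KO, in the same order. Without overlap between libraries, KO was above WT in 6 members and below it in 8, where 11.6% and 19.2% of all genes tested did so.

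At the lower bound, the members with the smallest ratios of KO to WT were Mapoly0063s0049 at -0.58 and Mapoly0012s0129 at -0.57. The nearest genes outside were Mapoly0010s0082 at -0.62 and Mapoly0011s0048 at -0.63. Without KO replicate 1 the ratio of Mapoly0063s0049 was -0.59 and that of Mapoly0012s0129 -0.61, both outside the bound. Without replicate 2 they were -0.52 and -0.76, and without replicate 3 -0.64 and -0.37, so that each member was outside the bound once more. At the upper side the members with the largest ratios were Mapoly0087s0060 and Mapoly0057s0102, both at 0.49, and the nearest genes outside were Mapoly0016s0125 at 0.62 and Mapoly0100s0057 at 0.64.

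The place of Mapoly0087s0060 near the upper bound came from 1 high KO library. It had 2.52, 2.77 and 2.79 CPM in WT, 5.14, 6.66 and 6.79 CPM in OX, and 6.76, 2.36 and 2.33 CPM in KO. KO replicate 1 was within the range of OX and the other KO libraries were below WT. Without KO replicate 1 its log2 ratio of KO to WT was -0.19, inside the bound. Without replicate 2 or replicate 3 the ratio was 0.74, outside the bound. The ratio of Mapoly0057s0102, whose KO libraries had 7.60, 5.17 and 5.04 CPM, was 0.27 without KO replicate 1, 0.57 without replicate 2 and 0.59 without replicate 3, the last just outside the bound.

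At the minimum ratio of OX to WT, the members just inside were Mapoly0049s0096 at 1.00, Mapoly0001s0070 at 1.01 and Mapoly0003s0239 at 1.01. Mapoly0049s0096 had 27.2, 31.0 and 29.4 CPM in WT, 54.68, 58.03 and 63.02 CPM in OX, and 29.28, 29.96 and 29.65 CPM in KO. The genes that failed only this minimum and came closest to it were Mapoly0072s0066 at 0.99, Mapoly0027s0133 at 0.99 and Mapoly0088s0042 at 0.99. The genes on either side of the line thus differed little.

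Between OX and KO, which the rule fixes almost in full, edgeR called 15.6% of all genes tested higher in OX, and 73 of the members. With library size alone 24.6% of all genes were called higher and 75 of the members. OX libraries lay above all KO libraries in 33.7% of genes tested and in 76 members. The members with overlap were Mapoly0006s0059, Mapoly0055s0008, Mapoly0142s0042 and Mapoly0087s0060.

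Mapoly0006s0059 and Mapoly0055s0008 were members because of 1 OX library each. Mapoly0006s0059 had 5.22, 0.139 and 0.105 CPM in OX, 0, 0 and 0.0697 CPM in WT, and 0.0349, 0.0347 and 0.139 CPM in KO. OX replicate 1 held nearly all of its counts, and the other OX libraries were at the level of KO replicate 3 or below and close to the limit that a count of 0 allows. The ratio of summed pairs between OX and WT was 69.2, with a 95% exact counting interval of 18.8 to 577, which does not cover the spread between libraries. The mean of the other OX libraries was 0.122 CPM.

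Mapoly0055s0008 had 0.977, 5.58 and 0.875 CPM in OX, 0.629, 0.446 and 0.662 CPM in WT, and 0.906, 0.381 and 0.383 CPM in KO. OX replicate 2 was high, and the other OX libraries were only slightly above WT, with KO replicate 1 between them. Without OX replicate 2 the log2 ratio of OX to WT was 0.59, against 1.92 with it.

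Mapoly0142s0042 had the next largest spread, with 0.601, 1.87 and 1.19 CPM in OX against 0.559, 0.357 and 0.523 CPM in WT. Its lowest OX library was 1.07 times its highest WT library, the smallest gap among the 80. The gap had a median of 1.90 times over members and was at least 2 times in 32 of them. It was under 1.2 times in Mapoly0142s0042 alone.

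The other members varied less over the OX libraries. The coefficient of variation, the SD as a percent of the mean, had a median of 10.9% over the 80 members and of 6.32% over all genes tested, many of which have more counts. It was under 10% in 35 members and over 30% in 5 of the 80, beside 9.48% of all genes tested. These were the 3 genes just described, Mapoly0107s0016 and Mapoly0056s0077. The smallest values were 0.696% in Mapoly0175s0004, 1.47% in Mapoly0142s0035 and 2.24% in Mapoly0037s0080. Mapoly0037s0080 had 2.93, 2.81 and 2.83 CPM in OX against 1.22, 1.34 and 1.32 CPM in WT and 1.57, 2.12 and 1.74 CPM in KO. With the highest OX library of each gene left out, 56 of the members still met the minimum level and ratio and 24 did not, a count that this removal can only lower.

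**Figure D3:**
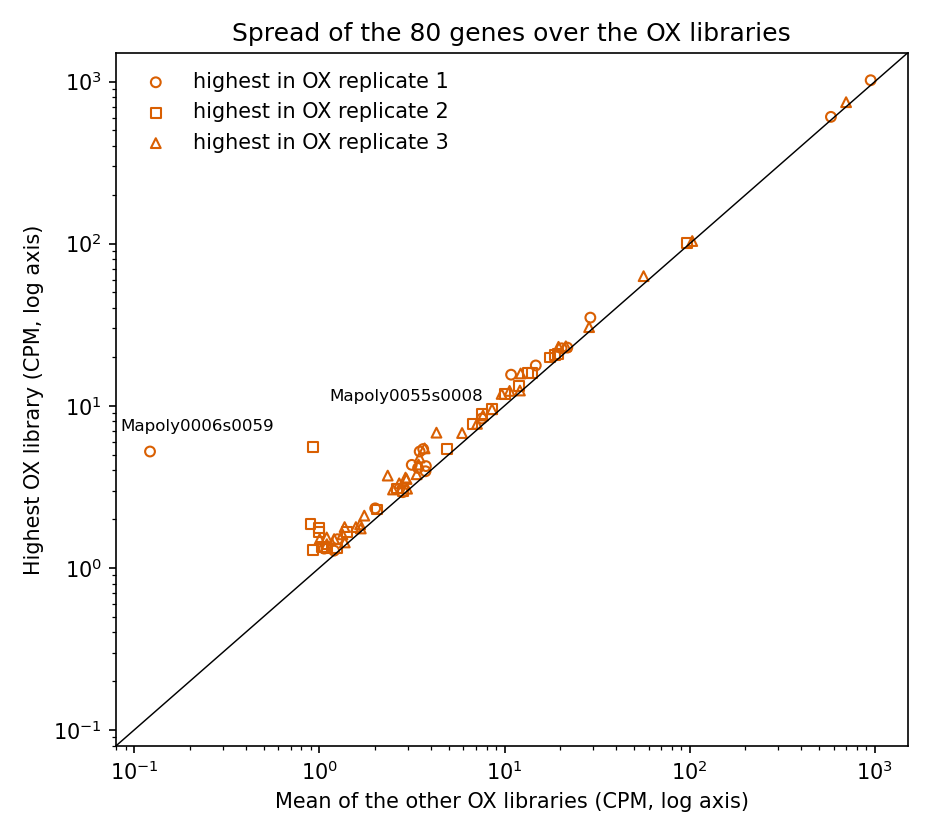
Highest OX library (vertical) against the mean of the other OX libraries (horizontal) of each of the 80 genes, in CPM on log axes; the symbol gives the replicate that was highest and the line marks equal values. Most genes lie near the line, and Mapoly0006s0059 and Mapoly0055s0008 lie far above it.

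The IDs give a scaffold and a number on it. The 80 genes were spread over 53 scaffolds, of which 36 held 1 member, 10 held 2 and 7 held 3 or more. Scaffold Mapoly0002 held 5 of the members among 346 IDs, and Mapoly0142 held 3 among 43 IDs. No coordinates of these IDs were used here, and whether consecutive numbers are adjacent genes was not checked.

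Consecutive ID numbers occurred in 7 pairs, which took in 14 members, or 17.5%. Among the genes with KO also higher the share was 23.1% (9 of 39), and among those with KO lower 18.0% (9 of 50). These differences were not tested. The lists differ in size, on which such a share depends, and no share for lists drawn from all IDs is given here. Reads of overlapping or near-identical neighbours may have been split between IDs, and the sources used here give neither the counting settings nor the use of strand.

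Mapoly0023s0165, the member with the largest ratio, had Mapoly0023s0164 as its neighbour. This gene had 8.49, 7.14 and 8.75 CPM in WT, 27.8, 29.5 and 30.6 CPM in OX, and 7.70, 7.52 and 7.72 CPM in KO. The OX libraries were a group of their own, with a fitted log2 fold change of 1.79 ± 0.08 (SE), much smaller than that of Mapoly0023s0165. On the other side Mapoly0023s0166 had 2802, 3094 and 2131 CPM in WT, 2192, 2026 and 2159 CPM in OX, and 2303, 1908 and 1626 CPM in KO. It was not called between OX and WT, and its libraries overlapped between the genotypes.

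In Mapoly0002s0113 and Mapoly0002s0114 the OX libraries differed among themselves in the same order. Mapoly0002s0113 had 5.41, 3.92 and 3.36 CPM in OX against 1.82, 1.21 and 1.74 CPM in WT and 1.29, 1.66 and 1.46 CPM in KO. Mapoly0002s0114 had 15.6, 11.3 and 10.4 CPM in OX against 4.61, 3.53 and 2.62 CPM in WT and 2.58, 3.19 and 2.09 CPM in KO. OX replicate 1 was highest in both. Mapoly0001s0210 and Mapoly0001s0211 were instead highest in OX replicate 3.

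Mapoly0001s0210 had 4.28, 4.30 and 6.82 CPM in OX, 1.36, 1.61 and 2.48 CPM in WT, and 1.74, 1.70 and 1.84 CPM in KO. Mapoly0001s0211 had 3.42, 3.99 and 5.46 CPM in OX, 1.78, 1.29 and 1.64 CPM in WT, and 1.43, 1.46 and 1.67 CPM in KO. In 4 of the 7 pairs the same OX library was highest in both genes. Over all 80 members OX replicate 3 was highest in 36, replicate 2 in 24 and replicate 1 in 20.

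Mapoly0084s0058 and Mapoly0084s0059 formed another pair. The former had 0.733, 0.893 and 1.01 CPM in WT, 3.005, 2.912 and 3.534 CPM in OX, and 0.558, 0.728 and 0.765 CPM in KO. The latter had 1.15, 0.714 and 0.906 CPM in WT, 4.13, 3.50 and 3.32 CPM in OX, and 0.732, 0.347 and 0.696 CPM in KO. In both genes OX was separate from WT and KO, which overlapped. The next ID, Mapoly0084s0060, chosen for mention after its values were seen, was not a member because its OX mean of 0.749 CPM missed the minimum; its WT mean was 0.208 CPM and its KO mean 0.232 CPM.

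In the other 3 pairs OX was above WT in every library, as the rule requires of each member. Mapoly0077s0001 had 9.43, 9.96 and 10.8 CPM in WT and 21.2, 21.6 and 23.3 CPM in OX, and Mapoly0077s0002 had 2.65, 3.53 and 2.89 CPM in WT and 6.99, 8.91 and 8.08 CPM in OX. Mapoly0002s0292 had 6.50, 6.56 and 7.32 CPM in WT and 20.7, 18.4 and 23.1 CPM in OX, while Mapoly0002s0293 had 0.244, 0.446 and 0.593 CPM in WT and 0.864, 1.144 and 1.505 CPM in OX. The KO libraries of Mapoly0077s0002 and Mapoly0002s0292 were all below WT, with means of 2.12 and 4.89 CPM, while those of Mapoly0002s0293 overlapped with WT. Mapoly0005s0134 and Mapoly0005s0135 had log2 ratios of OX to WT of 1.01 and 1.15, close to the minimum.

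**Figure D4:**
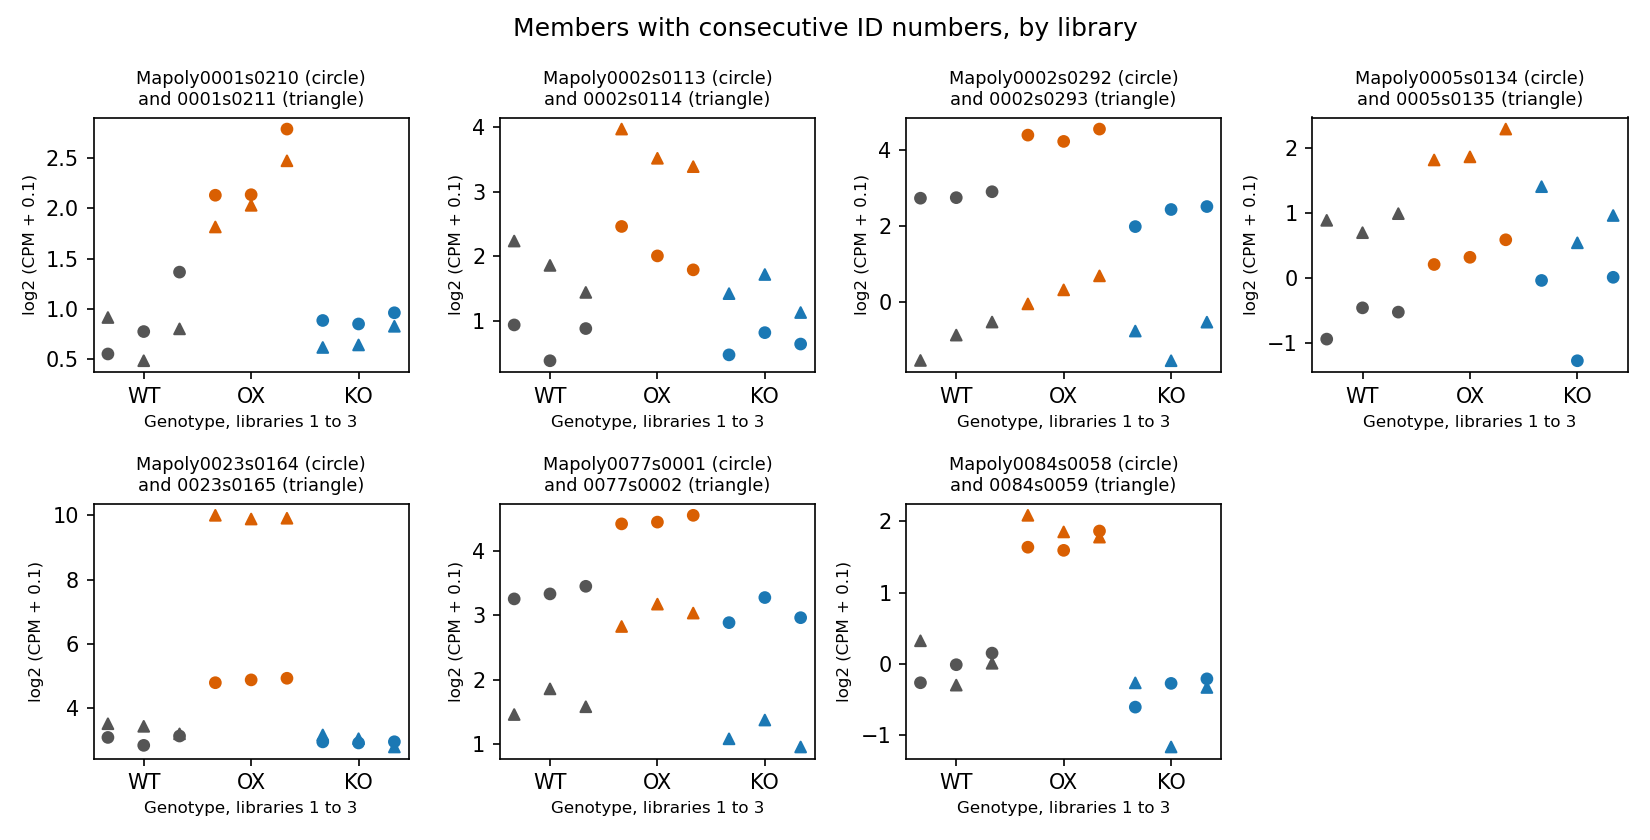
Levels by library, as log2 (CPM + 0.1), of the 7 pairs of members with consecutive ID numbers; circles are the lower and triangles the higher number, grey is WT, orange OX and blue KO, each with replicates 1 to 3 from left to right. Both genes of each pair are highest in OX, which the rule requires against WT. The gap between OX and the rest differs most between the genes in the pair of Mapoly0023s0164 and Mapoly0023s0165.

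The IDs next to the members were not chosen by the rule, except that those meeting it are members and were left out. Where reads were split between neighbouring IDs, their levels are not separate from those of the members, which was not tested. There were 145 IDs next to members that were not members themselves, of which 112 were tested. Of these 21 were called higher in OX than in WT, or 18.8%, beside 10.5% of all genes tested, and 14 were called lower, or 12.5%, beside 14.3%. With library size alone 21.4% of the neighbours and 15.9% of all genes were called higher. At a distance of 2 ID numbers 13.6% were called higher in OX than in WT, and at 3 numbers 11.4%. Between OX and KO the shares called higher in OX did not fall steadily with distance. They were 22.32%, 24.55% and 19.3% at distances of 1, 2 and 3, beside 15.6% of all genes tested. In KO against WT 4.46% of the nearest neighbours were called higher and 7.14% lower, beside 6.51% and 7.64% of all genes tested. Their median fitted log2 fold change in OX was 0.06, beside 0.01 over all genes tested, and 77 of the 112 were not called in either direction. No test of the difference from the other genes was made.

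Some of these neighbours were chosen for mention after their values were seen. Mapoly0142s0042 stood between Mapoly0142s0041 and Mapoly0142s0043, and both were called higher in OX than in WT. Mapoly0142s0041 had means of 3.87 CPM in WT, 6.37 CPM in OX and 3.71 CPM in KO. Mapoly0142s0043 had 1.25 CPM in WT, 4.33 CPM in OX and 2.91 CPM in KO. The latter was also called higher in KO than in WT, and it was not called between OX and KO. Mapoly0010s0079 was a member, and Mapoly0010s0080 beside it had 7.69 CPM in WT, 16.6 CPM in OX and 4.24 CPM in KO, which placed it among the genes with KO lower. Beside Mapoly0040s0023, by contrast, Mapoly0040s0024 was called lower in OX, at 0.371 CPM against 1.56 CPM in WT.

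The scaffold of Mapoly0196s0008 stood out in the other direction and was singled out after its values were seen. It carried 17 IDs, of which 9 were tested. Of these Mapoly0196s0008 alone was called higher in OX, and 7 were called lower, or 77.8%, beside 14.3% of all genes tested. All 7 were among the IDs numbered 10 to 17. Mapoly0196s0010 had 21.3, 19.7 and 19.2 CPM in WT, 7.17, 8.32 and 7.31 CPM in OX, and 16.6, 13.0 and 15.3 CPM in KO. Mapoly0196s0013 had 13.9, 13.6 and 11.9 CPM in WT, 0, 0.451 and 0 CPM in OX, and 10.9, 8.70 and 10.1 CPM in KO. In both genes every OX library was far below every WT library, and KO lay below WT by much less.

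Mapoly0196s0009, between the member and the run of lower genes, was too low to be tested, with means of 0.073 CPM in WT, 0.0474 CPM in OX and 0.162 CPM in KO. Mapoly0196s0007, on the other side, had 0 counts in all libraries. Among the tested IDs of this scaffold Mapoly0196s0008 alone was thus called higher in OX, and those called lower began at the second ID after it. Mapoly0196s0005, numbered before the member, was tested and not called between OX and WT. Its means were 0.1894 CPM in WT, 0.0705 CPM in OX and 0.3015 CPM in KO, and it was called lower in OX than in KO.

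**Figure D5:**
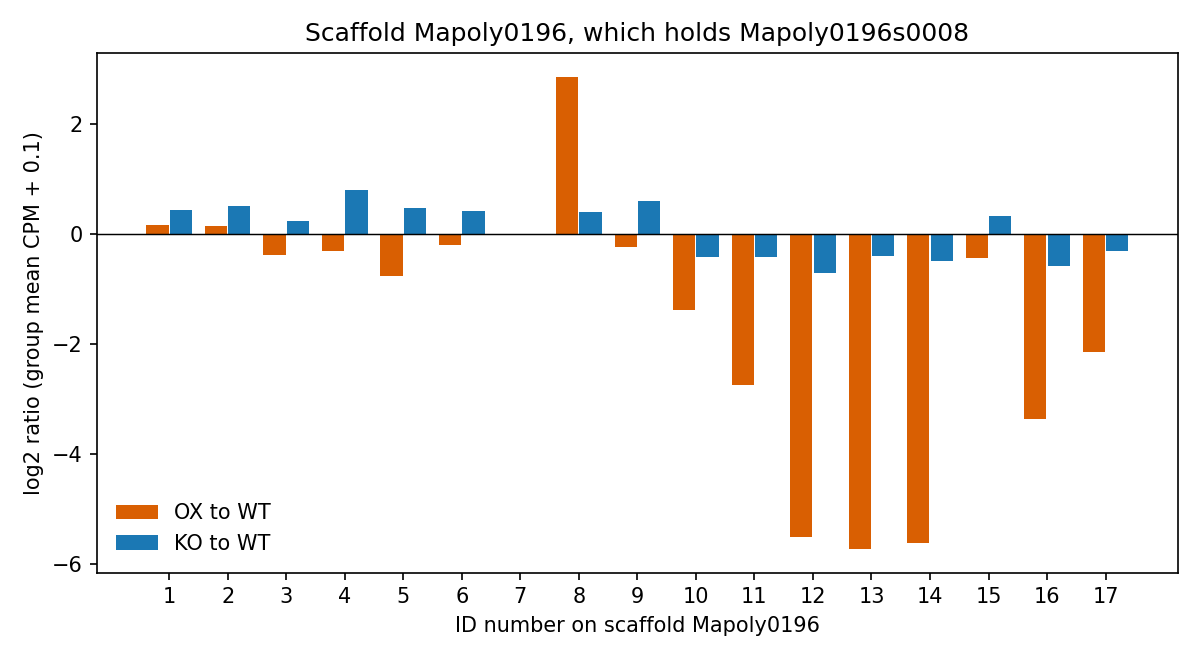
Log2 ratios of group mean CPM with 0.1 added, of OX to WT (orange) and of KO to WT (blue), for the 17 IDs of scaffold Mapoly0196 by ID number, which is not a distance. Mapoly0196s0008 is at 2.86 in OX, and the ratios of the IDs numbered 10 to 17 are below 0 in OX, down to -5.73 in Mapoly0196s0013; several IDs have too few counts to be tested, including number 15.

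The genes whose levels followed Mapoly0023s0165 most closely were ranked by Pearson correlation of log2 (CPM + 0.1) over the 9 libraries, among 12400 other genes with an OX mean of at least 1 CPM. They were Mapoly0159s0009 (r = 0.9968), Mapoly0081s0065 (r = 0.9961) and Mapoly0175s0004 (r = 0.9956), the last of which is a member. Mapoly0159s0009 had 32.1, 30.4 and 29.7 CPM in WT, 50.9, 51.5 and 51.7 CPM in OX, and 29.8, 29.2 and 30.2 CPM in KO. Mapoly0081s0065 had 445, 442 and 453 CPM in WT, 660, 656 and 655 CPM in OX, and 425, 422 and 420 CPM in KO. With OX apart from the other genotypes, such values mostly reflect that split and the small spread within genotypes, and they say nothing of the size of the difference, which was a log2 ratio of 0.74 and 0.56 in the latter genes against 6.53 in Mapoly0023s0165.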

How the data were processed

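Per the file headers and row names, the authors deposited raw counts per gene, 1 column per library, on version 3.1 gene models. The submitters' processing notes name STAR 2.5.1b and featureCounts 1.5, with settings and genome build not given in the sources used here. No column belonged to other samples (0 columns). The rule was applied to CPM from column totals. Counts as deposited were tested with edgeR 4.0.16 in R 4.3.3 on 14813 genes kept by filterByExpr, with TMM factors of 0.958 to 1.04, 1 mean per genotype and all 9 libraries; calls used an adjusted p under 0.05. Standard errors come from the F statistics. The fit was tested on simulated data. Alternatives were 3 other scalings, no filter, DESeq2 1.42.0, fits of 2 genotypes, a replicate block, single libraries left out, halved counts (added after seeing the data) and other settings of the rule. The p-values cover the spread between samples of 1 line. The 80 genes and all lists were chosen with earlier results of these data known. Named genes were the 8 largest ratios, the 5 highest OX means, genes nearest each bound, consecutive IDs with the IDs beside the 5 largest ratios, the 3 largest and 3 smallest spreads in OX, and the 3 genes most like the first; others are said to be chosen after their values were seen or belong to a count of 5 or fewer.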

Additional observations from a re-analysis of the deposited data

How the results depend on the processing

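The choice of genes depended on the rule: it gave 43 genes with a pseudocount of 1 CPM (37 of them among the 80), 123 with no minimum OX mean, 35 with a minimum of 5 CPM, 67 with TMM-scaled CPM and 81 with no pseudocount. With each library left out in turn it gave 71 to 93 genes, and 38 of the 80 were chosen every time. Members called higher in OX numbered 76 to 79 against WT and 73 to 76 against KO in the other fits, and 68 to 77 and 64 to 74 with 1 library left out. Members called between KO and WT numbered 4, with 9 in DESeq2, 13 with the replicate block and 4 to 6 with 1 library left out. Over all genes, calls higher in OX than in WT numbered 1554, with 2350 by library size alone, 2333 with the replicate block and 1045 to 1661 with 1 library left out. Calls between KO and WT numbered 2096, with 3516 with the block and 1293 to 2076 with 1 library left out, fewest without KO replicate 2. Calls higher in OX than in KO numbered 2318, with 3649 by library size alone and 1745 to 2509 with 1 library left out. The cause of these moves was not tested. Fits with 1 library left out also had fewer libraries, which was not separated from which library was removed. Of 578 recomputed fold changes from WT to OX of 34 named members, 0 changed direction, 24 lost the call and 6, all of Mapoly0055s0008, gained it. The lost calls were those of Mapoly0005s0134 (8), Mapoly0142s0042 (7), Mapoly0087s0060 (5) and Mapoly0002s0293 (4), each with 1 library left out except 1 of Mapoly0142s0042, in the fit of 2 genotypes. By the labels, a replicate number is all that same-numbered libraries have in common. Deviations of such libraries from their genotype means correlated at 0.00961 to 0.241, over 0.1 in 6 of 9 pairs. Between libraries of different genotypes and different numbers the correlations were -0.259 to 0.023. Within a genotype the deviations cancel out, so positive correlations for the same number bring negative ones for other numbers. The latter range is therefore not a separate observation. In both other genotypes, 7 of 9 libraries correlated best with their own number. The cause of this was not tested.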
